A study of Mus musculus with 2 samples.

Results

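The Mir30 family is a group of 7 annotated mouse microRNA genes, Mir30a, Mir30b, Mir30c-1, Mir30c-2, Mir30d, Mir30e and Mir30f, taken by their GENCODE M21 symbols from a table of 2202 microRNA genes. Their reads were counted in small RNA libraries of gastrocnemius, a large muscle of the calf. The tissue came from female B6CASTF1/J mice (hybrids of C57BL/6J and CAST/EiJ) aged 14 days, and no treatment or second genotype is named. There was 1 group of 2 biological replicates, which carry separate biosamples but the same donor identifier. Replicate 1 has a biosample named for 3 females and replicate 2 one named for a single female, and nothing states whether RNA was pooled. The spread between the libraries may therefore be technical, and no groups were compared.

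A microRNA is cut from a short hairpin transcript, and either arm of the hairpin (5p or 3p) can be loaded onto an Argonaute protein and guide it to messenger RNAs. Targets are recognised mainly through the seed, bases 2 to 8 of the mature strand, so microRNAs with the same seed tend to share targets. In mouse myoblasts, miR-30 microRNAs are known to promote differentiation and to repress Tnrc6a, a partner of Argonaute. In rodent heart they repress the matrix gene Ctgf together with miR-133. The family is widely expressed, with high levels in heart and skeletal muscle.

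The mature strands are shown because shared bases decide which gene a read can be assigned to. RefSeq (GRCm38.p6) held entries for 5 of the 7 genes, namely Mir30a, Mir30c-1, Mir30c-2, Mir30e and Mir30f. Mir30b and Mir30d are named only. Capitals mark the seed, and all strands run 5′ to 3′.
miR-30a-5p: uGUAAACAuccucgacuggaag
miR-30e-5p: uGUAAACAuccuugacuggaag
miR-30c-5p: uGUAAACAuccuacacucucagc
miR-30f: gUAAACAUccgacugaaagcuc
miR-30a-3p: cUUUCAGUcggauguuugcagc
miR-30e-3p: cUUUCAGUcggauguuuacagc
miR-30c-1-3p: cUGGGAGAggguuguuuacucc
miR-30c-2-3p: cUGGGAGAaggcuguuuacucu

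The 5p strands of Mir30a, Mir30e and the Mir30c genes shared their first 12 bases and the seed GUAAACA. That seed occurred in 5 of the 1738 mature entries of the table (0.288%). The fifth entry was miR-384-5p, of Mir384 on chromosome X, which is outside the family by name. Counting from 1 at the 5′ end, miR-30a-5p differed from miR-30e-5p by C13U alone, and miR-30a-3p from miR-30e-3p by G18A alone. The miR-30c-5p strand of 23 nt was identical in Mir30c-1 and Mir30c-2, whose hairpins shared an exact stretch of 28 nt. Their 3p strands differed by G9A, U12C and C22U, so only a read from the 3p arm, or one that reaches past the shared stretch, can tell these genes apart. Mir30a and Mir30e shared a stretch of 18 nt. Outside the family, no hairpin of the table shared more than 11 nt with any of the 4 member hairpins it held. The miR-30f strand shared 10 bases with miR-30a-5p but starts 1 base later within them, so its seed was UAAACAU, which no other mature entry had.

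The 7 genes lie at 3 loci (mm10). Mir30d (ENSMUSG00000065437.1, chromosome 15, 68341208 to 68341289, minus strand, exonic in the long noncoding gene Gm20732) and Mir30b (ENSMUSG00000065476.2, 68337415 to 68337510, with 16 bp on an exon of the noncoding gene Gm26621) were 3697 bp apart. Mir30a (ENSMUSG00000065405.3, chromosome 1, 23272269 to 23272339, plus strand) overlapped no annotated gene, and Mir30c-2 (ENSMUSG00000065567.1, 23291701 to 23291784, exonic in the long noncoding gene Gm27028) followed 19361 bp downstream. Mir30e (ENSMUSG00000065409.1, chromosome 4, 120772606 to 120772697, minus strand) and Mir30c-1 (ENSMUSG00000065490.1, 120769534 to 120769622) were 2983 bp apart, both in introns of Nfyc, which encodes a subunit of the transcription factor NF-Y. Mir30f (ENSMUSG00000105585.1) was annotated on the same 92 bp as Mir30e, on the plus strand. Its mature strand (120772621 to 120772642) overlapped the position of miR-30e-3p (120772618 to 120772639) by 19 bases. Of the other printed strands, miR-30e-5p lay at 120772660 to 120772681 and miR-30c-1-3p at 120769546 to 120769567 of chromosome 4. On chromosome 1, miR-30a-5p lay at 23272274 to 23272295, miR-30a-3p at 23272315 to 23272336 and miR-30c-2-3p at 23291754 to 23291775. The miR-30c-5p strand lay at 120769584 to 120769606 of chromosome 4 and at 23291714 to 23291736 of chromosome 1.

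**Figure D1:**
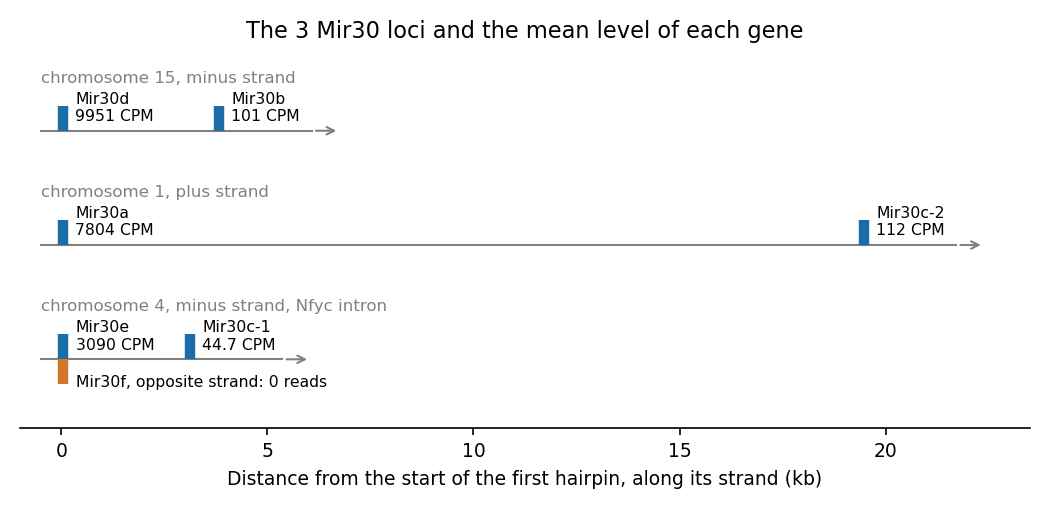
Map of the 3 loci, with distance from the first hairpin in kb along the x axis and each hairpin as a bar (blue on the strand of the locus, orange for Mir30f on the opposite strand, widths not to scale). Each locus has 1 gene at 3090 CPM or more followed downstream by 1 gene at 112 CPM or less, as means of 2 libraries. Levels of the Mir30c genes are lower bounds.

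Levels are given in CPM, a gene's same-strand reads scaled so that the reads assigned to microRNA genes have the same total in every library. Those reads numbered 2672454 reads in replicate 1 and 4292012 in replicate 2, and the reads that aligned to several places, which add to no gene, made up 52.7% and 52.4% of the 2 libraries. Each read comes from 1 mature strand, so counts were not divided by hairpin length. The arms of a hairpin are pooled in its count. The tissue label was checked on a list of 9 skeletal muscle microRNA genes. All but Mir133a-2 reached 1 CPM in both libraries (8 genes), against 16.7% of all genes. Mir206 led them at 95105 CPM in replicate 1 and 84695 CPM in replicate 2. The endothelial gene Mir126a was higher, with a mean of 118996 CPM. All 4 leukocyte and all 2 erythroid marker genes also reached 1 CPM in both libraries, so that level does not single out muscle. None of 6 neural genes of the Mir124a and Mir9 groups reached that level. The muscle and neural lists hold numbered copies of the same microRNA, namely Mir1a-1 and Mir1a-2, Mir133a-1 and Mir133a-2, and the Mir124a and Mir9 genes. Reads that fit several copies add to no gene, so the counts of these genes are lower bounds. The neural counts therefore cannot show that neural RNA was absent.

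The Mir30 family held 2.11% ± 0.179 of assigned reads (SD, n = 2). It had 59769 reads (2.24%, exact 95% binomial interval 2.22 to 2.25) in replicate 1 and 85149 reads (1.98%, 1.97 to 2.00) in replicate 2. Of the 7 genes, 6 reached 1 CPM in both libraries, against 367 of all 2202 genes (16.7%). The median of the 6 expressed members was 1601 CPM, and that of all expressed genes was 81.5 CPM. No member lay near the member median, since 3 averaged 3090 CPM or more and the others 112 CPM or less. Nearly all of the family's assigned reads came from Mir30d, Mir30a and Mir30e, the upstream gene of each locus. Reads that fit both Mir30c genes are in none of these counts, so the family's count is a lower bound. Shares of the family given below are shares of its assigned reads. In bulk tissue, fewer cells that make a microRNA and less of it per cell cannot be told apart.

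Mir30d was the highest member, at 10054 CPM (26870 reads) in replicate 1 and 9847 CPM (42262 reads) in replicate 2. It ranked 20th and 21st among all microRNA genes and gave 47.3% ± 3.31 of the family's reads. Mir30a stood at 8508 CPM (22738 reads) and 7099 CPM (30468 reads), and gave 36.9% ± 1.60 of the family. Its rank was 24 in replicate 1 and 27 in replicate 2. The SD of Mir30d was 1.48% of its mean and that of Mir30a 12.8%.

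Mir30e stood at 3527 CPM (9427 reads) in replicate 1 and 2653 CPM (11388 reads) in replicate 2, which was 14.6% ± 1.70 of the family. It ranked 44th and 52nd, and its SD was 20.0% of its mean. The values of Mir30d, Mir30a and Mir30e did not overlap across the libraries, so their order was the same in both. Mir30a was 2.41-fold and 2.68-fold above Mir30e in the 2 libraries, and Mir30d was 1.18-fold and 1.39-fold above Mir30a.

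A gap of 27.5-fold in replicate 1 and 27.7-fold in replicate 2 separated Mir30e from the next member, Mir30c-2. Mir30c-2 had 128 CPM (343 reads) in replicate 1 and 95.8 CPM (411 reads) in replicate 2. Mir30b had 98.8 CPM (264 reads) and 102.5 CPM (440 reads). These ranges overlapped and the order of Mir30c-2 and Mir30b changed between the libraries, so they did not differ beyond their spread. Mir30c-1 was lower, at 47.5 CPM (127 reads) and 41.9 CPM (180 reads), and ranked 203rd in both libraries. Mir30b was 2.08-fold and 2.44-fold above it. Of the family's reads, Mir30c-2 gave 0.528% ± 0.0645, Mir30b 0.479% ± 0.0531 and Mir30c-1 0.212% ± 0.000771. The Mir30c counts exclude any read that fits both genes, so they are lower bounds on miR-30c, and how many such reads there were is not recorded.

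**Figure D2:**
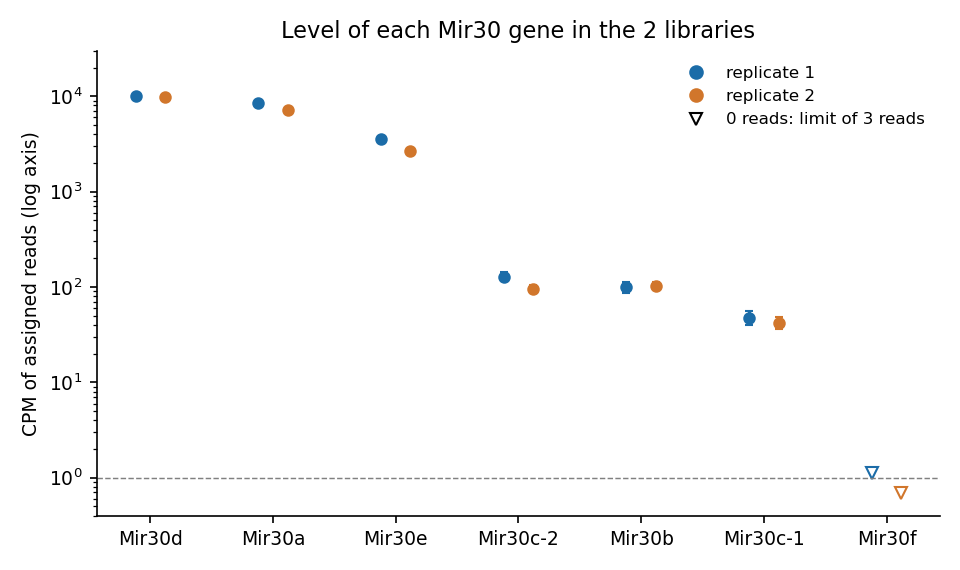
CPM of each Mir30 gene on a log axis, in replicate 1 (blue) and replicate 2 (orange), with exact 95% binomial intervals and, for Mir30f, the limit of 3 reads as open triangles. Mir30d, Mir30a and Mir30e lie at 2653 CPM or more in both libraries and the other expressed members at 128 CPM or less. Values of the Mir30c genes are lower bounds.

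Mir30f had 0 reads in both libraries, which allows up to 1.12 CPM in replicate 1 and 0.699 CPM in replicate 2. All reads assigned to a gene on that stretch of chromosome 4 came from the Mir30e strand. Mir30e had 9427 same-strand and 0 opposite-strand reads in replicate 1, and 11388 and 0 in replicate 2. The other 5 members also had no opposite-strand read in either library. In the count column that ignores strand, Mir30e and Mir30f were both at 0, because a read there fits both genes and is set aside as ambiguous. The Mir30e reads made up 1.33% of all ambiguous reads of that column in replicate 1 and 1.07% in replicate 2. The level of Mir30e can therefore be read only from the stranded column.

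Mir384, which is known mainly from brain and whose miR-384-5p strand has the miR-30 seed (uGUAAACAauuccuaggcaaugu, chromosome X, 105344332 to 105344354), had 4 reads in replicate 1 and 12 in replicate 2. Its level was 2.15 ± 0.919 CPM. Mir30a, Mir30e, Mir30c-1 and Mir30c-2, the other genes whose entries have this seed, had 41.9 CPM or more in each library.

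**Figure D3:**
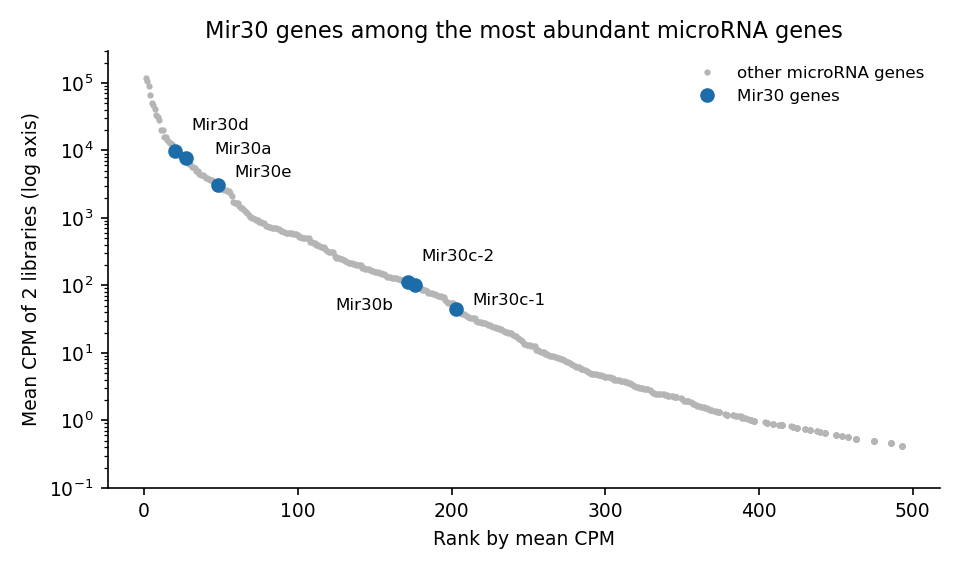
Mean CPM (log axis) against rank for the most abundant microRNA genes (grey), with the 6 expressed Mir30 genes in blue. Mir30d, Mir30a and Mir30e lie at ranks 20, 27 and 48, and Mir30c-2, Mir30b and Mir30c-1 at ranks 172, 176 and 203.

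The loci were compared next. The chromosome 15 locus (Mir30d and Mir30b) held 1.01% ± 0.0144 of assigned reads, at 1.02% in replicate 1 and 0.995% in replicate 2. The chromosome 1 genes (Mir30a and Mir30c-2) held 0.792% ± 0.102, at 0.864% and 0.719%. The chromosome 4 locus (Mir30e and Mir30c-1) held 0.314% ± 0.0622, at 0.357% and 0.270%. The loci kept this order in both libraries and their values did not overlap. Of the family's assigned reads they gave 47.8% ± 3.36, 37.4% ± 1.66 and 14.8% ± 1.70, in the same order of loci. The chromosome 1 and chromosome 4 sums each include a Mir30c gene, whose count is a lower bound, and the chromosome 15 sum does not. The order therefore holds for assigned reads. How far reads that fit both Mir30c genes would move it was not tested.

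Within each locus the upstream gene exceeded its downstream neighbour in assigned reads, by 63.3 to 101.8 times. Mir30d had 101.8 times the reads of Mir30b in replicate 1 (95% counting interval 90.2 to 115.3) and 96.1 times in replicate 2 (87.4 to 105.7). Mir30a had 66.3 times the reads of Mir30c-2 (59.6 to 74.0) and 74.1 times (67.3 to 81.9). Mir30e had 74.2 times the reads of Mir30c-1 (62.3 to 89.1) and 63.3 times (54.6 to 73.7). A ratio within a library does not depend on depth or scaling. The intervals of the chromosome 1 and chromosome 4 ratios overlapped in each library, and those of the chromosome 15 ratio lay above both. On chromosomes 1 and 4 the denominator is a Mir30c gene, whose count is a lower bound because the whole miR-30c-5p strand is shared. The size of these ratios therefore holds for assigned reads only, and how far the shared reads would move them was not tested.

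**Figure D4:**
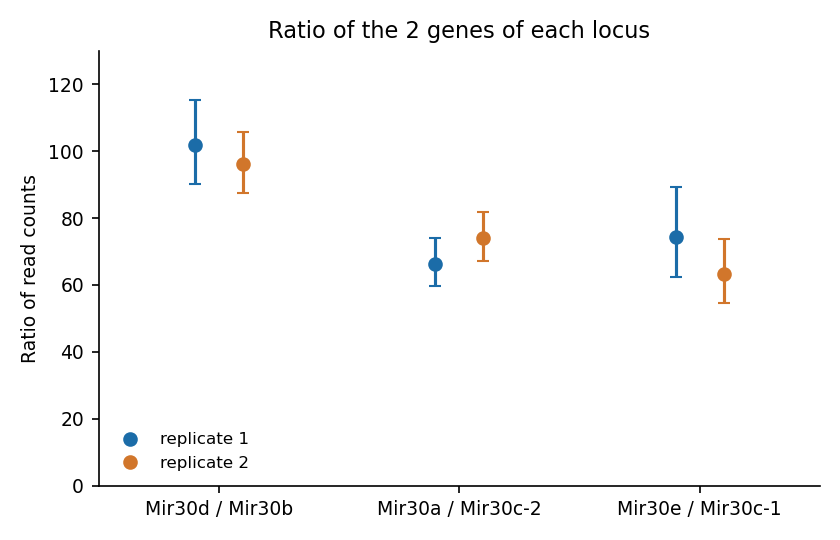
Ratio of read counts of the upstream to the downstream gene at each locus in replicate 1 (blue) and replicate 2 (orange), with 95% counting intervals. All 6 ratios lie between 63.3 and 101.8. Those over a Mir30c gene rest on a count that is a lower bound.

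The libraries were then set side by side. Their levels differed beyond counting error for 130 of the 176 genes that averaged at least 100 CPM, so they are not 1 library deposited again. The family as a whole was 1.13-fold higher in replicate 1 than in replicate 2 (95% counting interval 1.12 to 1.14). With 1 library a side this compares libraries, not animals. Of the 5 members that averaged at least 100 CPM, 4 had an interval above 1, against 34.7% of the 176 genes at that level. The interval of the remaining member included 1, and none lay below 1, against 39.2% of the 176 genes. The median ratio was 1.20 over the 5 members and 0.991 over the 176 genes. The members share loci and sequence and are not independent.

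Mir30e was 1.33-fold higher in replicate 1 (1.29 to 1.37) and Mir30a 1.20-fold (1.18 to 1.22). Mir30c-2, downstream of Mir30a, was 1.34-fold higher there (1.16 to 1.55). These 3 and the whole family stayed higher in replicate 1 under every other scaling tried. Mir30d differed by 1.02-fold (1.01 to 1.04), less than the median difference of 1.12-fold between the libraries over the 176 genes. The ratio of Mir30d turned to 0.964 (0.949 to 0.979) when CPM were taken over all reads instead of assigned reads. Mir30b had a ratio of 0.964 (0.824 to 1.13) and Mir30c-1 a ratio of 1.13 (0.896 to 1.43), both with intervals that include 1.

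**Figure D5:**
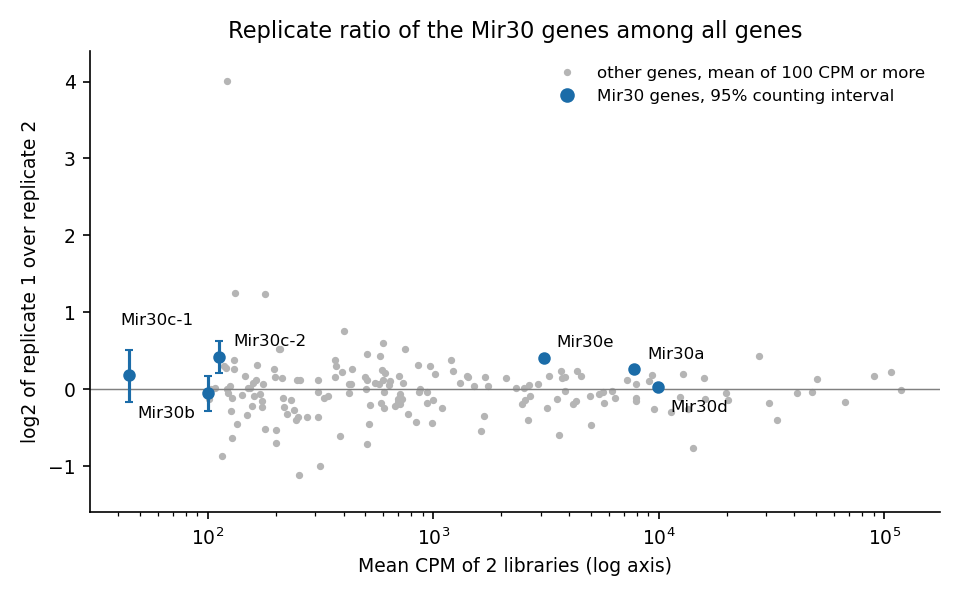
Log2 of the level in replicate 1 over replicate 2 against mean CPM (log axis) for genes that averaged at least 100 CPM (grey) and the 6 expressed Mir30 genes (blue, with 95% counting intervals). Mir30e, Mir30c-2 and Mir30a lie at log2 ratios of 0.41, 0.42 and 0.26, and Mir30d and Mir30b at 0.03 and -0.05.

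The shift differed between loci. Mir30e stood at 0.351 of the Mir30d reads in replicate 1 and 0.269 in replicate 2, a change of 1.30-fold (95% counting interval 1.26 to 1.34). Mir30a stood at 0.846 of Mir30d in replicate 1 and 0.721 in replicate 2, a change of 1.17-fold (1.15 to 1.20). Between Mir30e and Mir30a the change was 1.11-fold (1.07 to 1.15). Within loci no change was detectable at this depth. The ratio of Mir30d to Mir30b changed by 1.06-fold (0.909 to 1.24), that of Mir30a to Mir30c-2 by 0.894-fold (0.774 to 1.03) and that of Mir30e to Mir30c-1 by 1.17-fold (0.933 to 1.47). The within-locus intervals are wide because the downstream genes had 127 to 440 reads, and some include the changes seen between loci.

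Several marker lists also differed between the libraries. All 9 skeletal muscle genes together held 9.63% in replicate 1 and 8.59% in replicate 2, but Mir206 alone made up 98.7% of that. The Mir1a and Mir133a counts on that list are lower bounds, so this share holds for assigned reads only. Mir208b and Mir499, which lie in myosin heavy chain genes, ran the other way, with ratios of replicate 1 over replicate 2 of 0.548 (0.468 to 0.640) and 0.761 (0.687 to 0.841). The 2 endothelial genes, mostly Mir126a, held 11.9% in both, and the 5 smooth muscle and fibroblast genes 2.43% and 2.54%, with Mir199a-1 at 0 reads. The 2 erythroid genes held 0.0437% and 0.0185%, the 4 leukocyte genes 0.119% and 0.0853%, and the hepatocyte gene Mir122 0.0229% and 0.00142%. Of the 6 neural genes, 5 had 0 reads in both libraries and Mir9-3 had 0 and 4 reads. Numbered copies, such as the neural and Mir199a genes, lose any read that fits several of them, so such counts cannot show absence. The part of these markers in the Mir30 differences was not tested.

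The nearest genes in level, by distance of log2(CPM + 1) over the 2 libraries, were Mirlet7d and Mir541 for Mir30d, Mir195a and Mir299a for Mir30a, and Mirlet7e and Mir98 for Mir30e. Mirlet7d, of the let-7 group that promotes differentiation, stood at 9955 CPM in replicate 1 and 8723 CPM in replicate 2, and Mir195a at 8142 and 7785 CPM. Mir30c-2 was nearest to Mir24-2 (130 and 105 CPM), whose miR-24-3p strand also stands at Mir24-1, and to Mirlet7a-2 (133 and 109 CPM). For Mirlet7a-2 only 1 mature entry was held, so a strand shared with Mirlet7a-1 could have been missed. Mir30b was nearest to Mir3102 (96.9 and 105 CPM) and Mir700 (98.0 and 99.3 CPM). With 2 libraries this likeness is one of level only.

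The nearest annotated microRNA genes on chromosome 4 were Gm23936, 64.8 kb from Mir30e, and Mir1957a, 1.64 Mb from Mir30c-1, both with 0 reads. On chromosome 1 the nearest were Mir133b, a muscle microRNA 2.59 Mb before Mir30a, with 28.2 ± 3.92 CPM, and Gm22679, with 0 reads. Both neighbours of the chromosome 15 locus, Gm24810 and Gm47309, had 0 reads and lay 5.68 Mb and 3.45 Mb away.

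Families of a similar kind, spread over several loci, were set beside it. The Mir30 family at 2.11% ± 0.179 and the Mir26 family at 2.04% ± 0.137 did not differ beyond the spread between libraries. The Mir26 genes, which lie in introns of Ctdsp phosphatase genes, were lower in replicate 1 (1.95%) than in replicate 2 (2.14%), and 99.7% of the family's mean assigned level was Mir26b. Mir26a-1 and Mir26a-2 have the same miR-26a-5p strand in RefSeq, so their counts, the Mir26 total and the share left to them are lower bounds, as for Mir30c. The numbered copies of the Mir29 and Mir181 families also share a mature strand, so shares within and between these families hold for assigned reads only. The Mir181 family held 0.186% ± 0.0182 and its highest gene, Mir181b-2, gave 32.0%. The Mir29 family, known for restraining collagen genes, held 0.0566% ± 0.00361 and its highest gene, Mir29a, gave 74.4%. The highest Mir30 gene, Mir30d, gave 47.3% of its family, a share between that of Mir29a and that of Mir181b-2. Like Mir30c-1 and Mir30c-2, some genes of these families are numbered copies of 1 microRNA. Mir26a-1 and Mir26a-2 stood at 3.85 ± 0.155 and 56.9 ± 5.30 CPM, and Mir29b-1 and Mir29b-2 at 9.25 ± 3.85 and 4.46 ± 0.0448 CPM, all below their uncopied relatives. In the Mir181 family this did not hold, since Mir181b-2 at 597 ± 173 CPM lay within 1 SD of the uncopied Mir181d (507 ± 29.1) and Mir181c (499 ± 39.0). Mir181b-1 stood at 3.52 ± 1.28 CPM, Mir181a-1 at 201 ± 51.1 CPM and Mir181a-2 at 55.5 ± 6.52 CPM. In the Mir30 family, the uncopied Mir30b (100.7 ± 2.64 CPM) was not above the copy Mir30c-2 (112 ± 23.0 CPM).

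Of 17 microRNA genes known to promote muscle differentiation or restrain fibrosis, 16 reached 1 CPM in both libraries, against 16.7% of all genes. The highest were Mir378a at 106759 ± 11740 CPM, Mir206 at 89900 ± 7361 CPM, Mir26b at 20377 ± 1379 CPM, Mir322 at 9510 ± 1184 CPM and Mir486 at 591 ± 74.3 CPM. The list was chosen with earlier results of these data known, so the contrast with all genes is no test. The Mir1a, Mir133a, Mir26a and Mir29b counts on it are lower bounds, so the order of the highest holds for assigned reads only. Mir322 stood at 8672 CPM in replicate 1 and at 10347 CPM in replicate 2, a range that includes both values of Mir30d (10054 and 9847 CPM). Both values of Mir30a (8508 and 7099 CPM) lay below it, but Mir322 and Mir30a (7804 ± 997 CPM) overlapped within 1 SD. Of the 9 listed genes that averaged at least 100 CPM, 5 had an interval above 1 in replicate 1 over replicate 2, against 34.7% of all 176 genes, and 2 had an interval below 1, against 39.2%.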

How the data were processed

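Small RNA from 2 gastrocnemius samples was sequenced after selection of RNA shorter than 30 nt, per the labels. The deposited files hold raw read counts per microRNA gene on mm10 with GENCODE M21, per the text files that accompany them. No source used here names the aligner or the counting program. Each file has 3 count columns, read from their values as unstranded, same-strand and opposite-strand. The same-strand column was used. The 4 summary lines (66.6% and 64.6% of reads) name no gene and stayed out of totals.

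CPM, means, SDs and ratios were computed in Python 3.11.15 with scipy 1.17.1. Shares and replicate ratios have exact 95% binomial intervals, and changes of a ratio have log-scale normal intervals. All cover counting error only. No molecular identifiers are named, so repeated reads of 1 molecule cannot be told from separate molecules, and the intervals may be too narrow. With 1 group there was no test and no p-value. The interval step was run on simulated counts that held counting error only. That run checks the calculation and cannot show how well the intervals cover differences between real libraries. TMM factors (edgeR 4.0.16) and size factors (DESeq2 1.42.0) were alternatives. By the planned rule members lay at 1 locus if within 10 kb. The chromosome 1 genes, 19361 bp apart, fail that rule. They were also summed and are called 1 locus here, a choice made after seeing positions. No genome sequence was used, so copies of mature strands were looked for among RefSeq hairpins.

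Named genes were the members, the Mir29, Mir26 and Mir181 families, genes with the miR-30 seed, the 2 genes nearest in level to each member at 100 CPM, the nearest microRNA genes on the chromosome, the 5 highest of a pathway list, and cell type markers. Members and lists were chosen with earlier results of these data known.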

Additional observations from a re-analysis of the deposited data

How the results depend on the processing

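Apart from leaving out a replicate, 61 alternative values were computed, of which 28 moved by less than the spread between replicates or the counting interval (counts: by less than 1.5 times), 31 moved by more and 2 turned direction. With 2 replicates, leaving out 1 cannot move a mean by more than the SD, so it says nothing on stability. Over all reads instead of assigned reads, the family share was 0.724%, the chromosome 15 locus 0.345%, Mir30a 0.268%, Mir30c-2 0.00384%, both together 0.271% and the chromosome 4 locus 0.107%. With Mir126a, Mir378a and Mir206 left out of the total these became 3.09%, 1.47%, 1.14%, 0.0164%, 1.16% and 0.460%. In the unstranded column they were 2.42%, 1.35%, 1.05%, 0.0151%, 1.07% and 0.00602%, because Mir30e had 0 reads there and the total was smaller. The ratio of Mir30e to Mir30c-1 was then 0. The family's replicate ratio was 1.15 with TMM factors, 1.14 with DESeq2 size factors, 1.06 over all reads and 1.17 without the 3 genes. The ratio of Mir30d was 0.964 over all reads, and 1.03 to 1.06 under the other scalings. Mir30b, whose interval includes 1, stood at 1.00 without the 3 genes. Each replicate alone gave a family share of 1.98% to 2.24%. Of the 7 members, 6 passed 10 CPM in both replicates, and 260 of all 2202 genes averaged at least 10 CPM. Genes with an interval excluding 1 numbered 130 of 176, 138 with TMM factors, 136 with DESeq2 size factors, 153 of 260 from 10 CPM, and 173 of 660 with any read. No paired analysis was possible because there is 1 group. Depth limits Mir30b and both Mir30c genes, with 127 to 440 reads.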
